A study of Homo sapiens with 2 samples.

Results

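Gluconeogenesis and glucose output genes were followed in HepG2, a human hepatoma cell line, through 10 listed genes out of 18417 genes measured. The list held PCK1, PCK2, FBP1, G6PC1, G6PC3, SLC37A4 and PYGL, which act on the way to free glucose, the coactivator gene PPARGC1A, and IGFBP1 and IRS2, which insulin represses in liver. The study hybridised 2 microarrays. One held RNA of control HepG2 cells, and the other held RNA of HepG2 cells given amorphous SiO2-NP, silica nanoparticles, at 100 mg/L for 24 h. Both groups were grown in MEM medium, each group was 1 sample, and the labels tell nothing of particle size, glucose, insulin or serum. Values are log2 intensities of 1 probe per listed gene, and differences are given as SiO2-NP minus control throughout. Since each condition has a single array, no test was run and no value carries an error between cultures, so higher and lower describe these 2 arrays only.

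In the fasted liver, phosphoenolpyruvate carboxykinase, fructose-bisphosphatase and glucose-6-phosphatase bypass the irreversible steps of glycolysis and turn lactate, amino acids and glycerol into glucose, while glycogen phosphorylase frees glucose units from stored glycogen. Glucagon and glucocorticoids raise the transcription of several of these genes through CREB, the glucocorticoid receptor and the coactivator PGC-1α. Insulin lowers it, largely by AKT driving the transcription factor FOXO1 out of the nucleus. Hepatoma lines keep part of this programme.

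A level filter was set at the median gene mean over both arrays, a log2 intensity of 7.26, and 9209 genes reached it. Of the 10 listed genes 8 did, and FBP1 and IRS2 lay below. None of these 8 differed by 1.5-fold (0.58 on the log2 scale), where 0.391% of all genes above the filter did (0.141% higher and 0.25% lower). At 1.2-fold, a threshold chosen after the values were seen, G6PC1 was lower (beside 7.53% of all genes above the filter) and IGFBP1 was higher (beside 2.99%), which is 2 of 8 beside 10.5% in both directions. The 8 genes split evenly, 4 above and 4 below the control, beside 40.2% of all genes above. Their median difference was 0.0039, beside -0.03 over all genes above the filter, and it was -0.0081 after centring each array on its median. In RNA of a whole culture, fewer cells of a kind and less RNA per cell cannot be told apart.

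**Figure D1:**
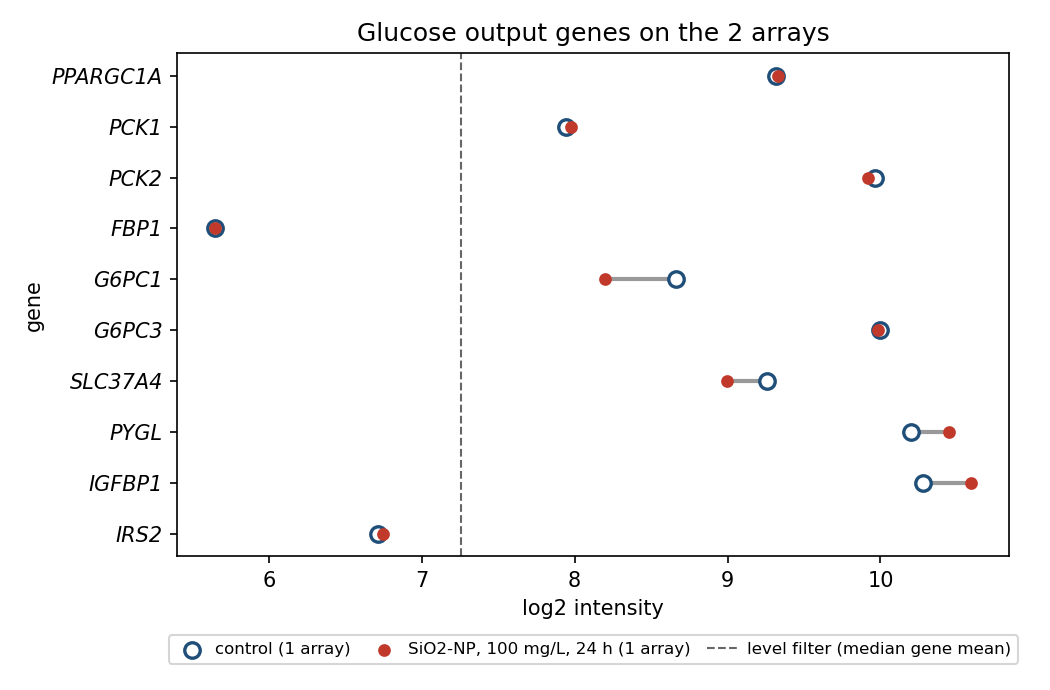
Log2 intensity (x axis) of the 10 listed genes (y axis) in the control array (open circles) and the SiO2-NP array (filled circles), 1 array each, with no error bars. The widest gap is that of G6PC1 (8.66 in the control, 8.20 after SiO2-NP); FBP1 and IRS2 lie left of the level filter (dashed line at 7.26). Intensities of different probes are not comparable with each other.

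The glucose-6-phosphatase system, which releases free glucose in the endoplasmic reticulum, held the listed genes that were lower by most. G6PC1, the catalytic subunit of liver and kidney, had a log2 intensity of 8.66 in control and 8.20 in exposed cells. It was lower in the exposed cells by 1.38-fold (difference -0.46), the 104th lowest of the 9209 genes above the filter. SLC37A4, the transporter that carries glucose-6-phosphate into the endoplasmic reticulum, had 9.256 on the control array and 8.999 on the exposed one. It was lower by 1.19-fold (difference -0.26), and 11.1% of the genes above the filter had as large a difference in either direction. G6PC3, the catalytic subunit found in most tissues, had 9.996 on the control array and 9.986 on the exposed one. Its difference of -0.0098 turned to 0.03 when differences were centred on their running median along the level axis and to 0.04 after quantile normalization, so it has no direction here. The liver catalytic subunit and its transporter were thus both lower on the exposed array, while the general subunit was level with the control.

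How far these differences stand out was read from 2 spreads within the arrays, neither of which is a replicate error. The first is the central 95% of differences among the 2.72% of all genes nearest in level, called genes of like level here. For G6PC1 it ran from -0.44 to 0.27, so G6PC1 lay just outside, and for SLC37A4 it ran from -0.36 to 0.25, so SLC37A4 lay inside. The second is the gap between the differences of 2 probes of 1 gene, over the 329 genes above the filter with exactly 2 probes. That gap had a median of 0.08 and a 95th percentile of 0.42. On the deposited values G6PC1 exceeded the 95th percentile in size, and the other 9 listed genes did not. Its difference was -0.419 with the running median taken off and -0.416 after quantile normalization. Both lie at the edge of that percentile (0.418), which was not recomputed for those scalings.

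The bases before the start of G6PC1 and SLC37A4 are shown because these genes were the pair with lower values. Sequences are RefSeq's on GRCh38.p14, whose promoter table held 8 of the 10 listed genes and not PCK1 and IGFBP1. Capitals mark TATAAA, searched on the given strand, and TGTTTTT, searched on both strands.

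G6PC1, chr17:42900549-42900798, + strand, the 250 bases before the start: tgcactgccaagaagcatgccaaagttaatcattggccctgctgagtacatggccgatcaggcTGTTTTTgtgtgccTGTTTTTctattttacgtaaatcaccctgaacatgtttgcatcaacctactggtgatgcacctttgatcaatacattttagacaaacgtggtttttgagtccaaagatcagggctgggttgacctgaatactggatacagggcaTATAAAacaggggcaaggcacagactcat
SLC37A4, chr11:119029481-119029540, - strand, the 60 bases before the second listed start: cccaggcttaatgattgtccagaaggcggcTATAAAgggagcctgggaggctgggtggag

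TATAAA began 29 bases before the start of G6PC1 and 30 bases before this start of SLC37A4. It was held by 6.8% of the 35116 promoter windows of 250 bases, and by 2 of the 12 windows of listed genes. The window of the first listed start of SLC37A4 lacked it. PCK1 and IGFBP1 had no window to search. The insulin response element core TGTTTTG (4.3% of windows) and the FOXO site TGTTTAC (2.98%) share their first letters TGTTT. In these exact letters, neither was in the G6PC1 window. TGTTTTT, a T-run variant of the core TGTTTTG, was added after this window had been read and occurred in it at 2 places. It was held by 6.29% of windows, among them windows of G6PC3 and PPARGC1A. Such matches describe letters, not bound sites.

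The carboxykinases that make phosphoenolpyruvate from oxaloacetate were near level between the arrays. PCK1, the cytosolic enzyme whose gene is a classic target of glucagon and insulin, had 7.94 on the control array against 7.98 on the exposed one. PCK2, the mitochondrial enzyme, had 9.97 in control and 9.92 in exposed cells. Their differences of 0.04 and -0.05 lay well inside the spread of genes of like level (-0.36 to 0.30 for PCK1). The difference of PCK2 shrank to -0.00016 after quantile normalization. FBP1, the fructose-bisphosphatase of liver, was listed at the same value, 5.65, on both arrays. Such equality was found in 25 of the 18417 genes (0.136%), and FBP1 lay below the level filter. The filter is a median level and no background was measured, so this dim probe cannot be told from background here. Its muscle paralogue FBP2 was also below the filter, at 4.99 on the control array against 4.86 on the exposed one.

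PYGL, the liver glycogen phosphorylase, was higher in the exposed cells. Its log2 intensity was 10.20 in control and 10.45 in exposed cells, a 1.19-fold difference (0.25). The central 95% of genes of like level ended at 0.24, so PYGL lay just past that edge. PYGB, the brain isoform, had 10.41 on the control array against 10.39 on the exposed one, and PYGM, the muscle isoform, was below the filter at 5.88 and 6.01. Of the phosphorylase genes, the liver isoform alone lay outside the spread of genes of like level.

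PPARGC1A encodes PGC-1α, the coactivator that joins FOXO1 and nuclear receptors on gluconeogenic promoters. It had 9.31 in control and 9.33 in exposed cells, a difference of 0.02, and 89.8% of the genes above the filter differed by as much or more. Its relative PPRC1 was at 8.16 on both arrays. PPARGC1B, below the filter, had 6.75 on the control array against 7.06 on the exposed one. That difference of 0.31 lay inside the wide spread of dim genes of like level, which reached 0.43. The cAMP response element half-site TGACG, searched on both strands, was held by 1 of 12 windows of listed genes, beside 21.2% of all windows. That window belonged to the first listed start of PPARGC1A, and the window of its second listed start lacked the half-site. CREB is known to switch this gene on, but whether it acts at this match was not tested. PCK1 and IGFBP1 had no promoter entry and were not searched.

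**Figure D2:**
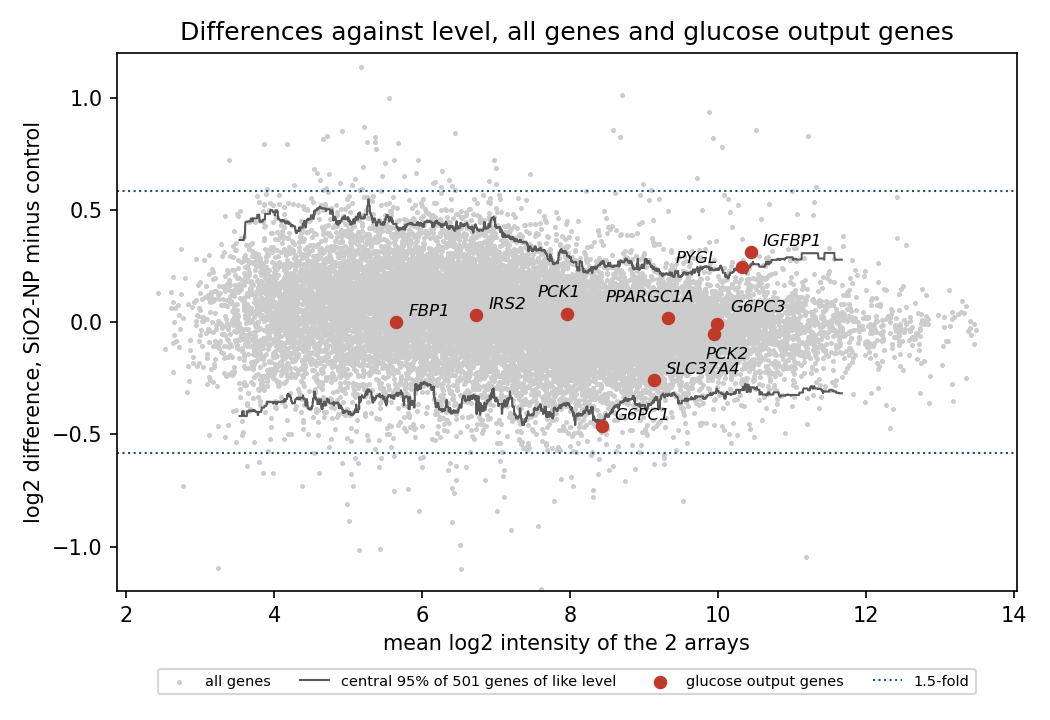
Log2 difference, SiO2-NP minus control (y axis), against the mean log2 intensity of the 2 arrays (x axis) for all genes (grey points) and the 10 listed genes (large labelled points); lines give the central 95% of genes of like level and dotted lines the 1.5-fold threshold. G6PC1 (-0.46) and IGFBP1 (0.31) lie outside the central range and PYGL (0.25) at its edge; 4 genes beyond 1.2 in size are not drawn.

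The insulin-repressed genes of the list did not share a direction. IGFBP1, a secreted binding protein for insulin-like growth factors and one of the liver genes most strongly repressed by insulin, read 10.28 in control cells and 10.59 in exposed cells. It was higher by 1.24-fold (difference 0.31), the 158th highest of the 9209 genes, and its genes of like level ended at 0.25. IRS2, the adaptor that carries the signal of the insulin receptor in hepatocytes, had 6.71 in control and 6.75 in exposed cells. IRS2 lay below the filter, and its difference of 0.03 turned to -0.05 with the running median taken off and to -0.01 after quantile normalization. With IGFBP1 higher, G6PC1 lower and PCK1 and IRS2 near level, these genes took 3 different courses on the same arrays.

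Of the 8 listed genes with a promoter entry, IRS2 alone had the insulin response element core in the exact letters TGTTTTG (in capitals). That is 1 of 12 windows, beside 4.3% of all windows. It lay on the given strand 40 to 34 bases before the start. IGFBP1 and PCK1 had no entry and were not searched. The variant TGTTTTT, not counted as the core, was in windows of G6PC1, G6PC3 and PPARGC1A, so absence of the exact letters is not absence of an insulin response element.

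IRS2, chr13:109786590-109786649, - strand, 60 bases around the match: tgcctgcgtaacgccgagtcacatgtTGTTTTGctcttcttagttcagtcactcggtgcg

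Relatives of the listed genes differed by up to 0.31 in size, and those above the filter by up to 0.15. IRS1, the other main insulin receptor substrate, had 8.38 on the control array against 8.25 on the exposed one (difference -0.14), and IRS4 was below the filter (difference -0.06). Among the binding proteins IGFBP7 had 7.63 and 7.78 (difference 0.15) and IGFBP4 had 9.44 and 9.48 (0.04). IGFBP2, IGFBP3 and IGFBP5 were below the filter, with differences of 0.24, 0.21 and 0.00064. SLC37A3, a relative of the glucose-6-phosphate transporter, had 8.76 and 8.70 (difference -0.05), and the dim SLC37A1 and SLC37A2 differed by 0.11 and 0.27. G6PC2, the islet catalytic subunit, was below the filter at 4.72 in control and 4.67 in exposed cells. Of 16 paralogues measured 6 reached the filter, with 3 above and 3 below the control, beside 40.2% of all genes above. Their median was -0.0075 (0.03 under a running median), with none at 1.2-fold, beside 10.5% of all genes.

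Enzymes and carriers that feed gluconeogenesis or share its reversible steps were mostly level, with 1 exception. GPD1, the cytosolic glycerol-3-phosphate dehydrogenase through which glycerol enters the pathway, had 8.69 on the control array against 7.94 on the exposed one. It was 1.68-fold lower (difference -0.75), the 9th lowest of the 9209 genes and the only member of these lists past 1.5-fold. MDH1, the cytosolic malate dehydrogenase, differed by -0.22 and pyruvate carboxylase (PC), which makes oxaloacetate from pyruvate, by 0.14. The hepatic glucose transporter SLC2A2 differed by -0.08 and GAPDH by 0.10. Of 21 such genes measured 17 reached the filter, with 7 above and 10 below the control, beside 40.2% of all genes above. Their median of -0.0083 turned to 0.02 under a running median and to 0.03 under quantile normalization.

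Genes that set the balance with glycolysis showed no difference of 1.2-fold among the 10 above the filter, beside 10.5% of all genes. PDK1, a kinase that closes pyruvate dehydrogenase, differed by 0.18, the glucokinase regulator GCKR by 0.13 and the carbohydrate-responsive factor MLXIPL by 0.13. PDK4, a FOXO1 target of fasting, was below the filter (5.47 in control and 5.57 in exposed cells). The median over the 10 was -0.04, with 3 above and 7 below, beside 40.2% of all genes above. Glycogen genes gave a median of -0.04 over 14 above the filter. Of these 14, 5 were above and 9 below the control, beside the same 40.2%. PHKA1, a regulatory subunit of phosphorylase kinase, differed by -0.29 and glycogenin GYG1 by -0.16. The liver glycogen synthase GYS2 was dim, at 4.15 on the control array against 4.65 on the exposed one, a difference of 0.50 where genes of like level ended at 0.44. The glycogen median turned to 0.0042 under a running median and to 0.01 under quantile normalization.

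Of 27 transcription factors and coactivators of gluconeogenic genes above the filter, 17 were above the control, beside 40.2% of all genes. The other 10 were below, and the median over the 27 was 0.04. At 1.2-fold 2 were lower (beside 7.53% of all genes) and 0 higher (beside 2.99%). KLF15, a fasting-induced factor for gluconeogenic and amino acid catabolic genes, had 7.65 in control and 7.09 in exposed cells. It was 1.47-fold lower (difference -0.56), the 37th lowest of the 9209 genes, and outside the range of genes of like level, which began at -0.46. NR3C1, the glucocorticoid receptor, had 8.69 on the control array against 8.41 on the exposed one, a difference of -0.27 inside its range of like level. FOXO1, the factor that insulin keeps out of the nucleus, had 9.48 and 9.53 (difference 0.05). CRTC2, the CREB coactivator, had 8.19 and 8.40 (0.20). The 2 factors furthest from the control were thus both lower, while the list median was slightly above it.

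Transcripts of the insulin and glucagon signalling chains had medians near 0. INSR, the insulin receptor, had 8.64 on both arrays. TRIB3, a pseudokinase that binds AKT, had 9.40 in control cells and 9.66 in exposed cells (difference 0.26), and PIK3CB, a catalytic subunit of PI3-kinase, had 9.24 and 8.98 (difference -0.27). TRIB3 lay outside its genes of like level, which ended at 0.22, and PIK3CB inside its own, which began at -0.36. Of 23 genes of insulin and IGF signalling above the filter, 1 (TRIB3) was at least 1.2-fold higher, beside 2.99% of all genes. Another 1 (PIK3CB) was at least 1.2-fold lower, beside 7.53%. Over the 23 the median was -0.0038, with 11 above and 12 below. Over 15 genes of glucagon, glucocorticoid and AMPK signalling it was -0.02, with 6 above and 9 below, beside 40.2% of all genes above, and none at 1.2-fold, beside 10.5% of all genes. The phosphodiesterase PDE4D differed by 0.14 and the adenylyl cyclase ADCY9 by -0.14. Both list medians changed sign under a running median (0.04 and 0.02). Transcript levels say nothing of phosphorylation, by which these chains act.

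Lists of insulin-responsive liver genes outside the listed genes differed in their medians. Of 13 other insulin-repressed or FOXO-bound genes above the filter, 4 were above the control and 9 below, beside 40.2% of all genes above, and the median was -0.06 (-0.0037 under a running median). KLF15, described above, was furthest from the control, followed by the cell cycle inhibitor CDKN1B (-0.30). TAT, a glucocorticoid- and insulin-controlled aminotransferase, was below the filter (7.16 and 7.12). Of 8 insulin-induced genes above the filter, 7 were at least 1.2-fold higher, beside 2.99% of all genes above the filter, and the median was 0.45. SREBF1, the lipogenic transcription factor, had 8.07 in control and 8.35 in exposed cells (difference 0.29). The desaturase SCD and the elongase ELOVL6 differed by 0.56 and 0.54. This list is made of lipid synthesis genes that were known to be higher on these arrays when it was drawn up, so its count is not independent evidence.

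**Figure D3:**
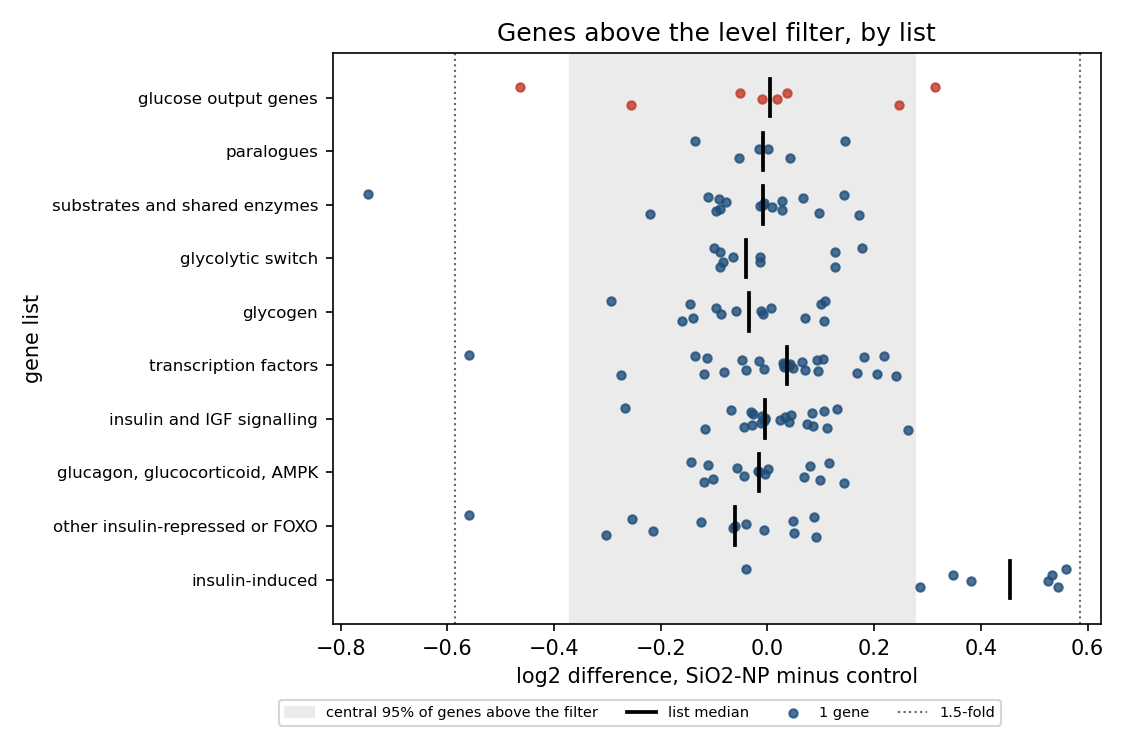
Log2 difference, SiO2-NP minus control (x axis), of the genes above the level filter in 10 lists (y axis), 1 point per gene, with list medians (bars), the 1.5-fold threshold (dotted) and the central 95% of all genes above the filter (grey, -0.37 to 0.28). The glucose output genes spread from -0.46 to 0.31 around a median of 0.0039, and the insulin-induced lipid genes have a median of 0.45.

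The labelled cell type was checked against markers. All 11 hepatocyte markers measured were above the filter, with differences from -0.11 to 0.20, and albumin (ALB) had 13.50 on the control array against 13.41 on the exposed one. Of markers of other cells, 1 of 10 for fibroblasts, 1 of 9 for leukocytes, 0 of 10 for endothelium and 0 of 7 for kidney and islets reached it. Over all genes above the filter, differences had an SD of 0.16.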

How the data were processed

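The deposited table held 1 log2 intensity per probe and array; the log2 scale was read from the values, with array medians of 6.65 and 6.69. Per the submitters' processing notes RMA and MAS5 were used, and the sources used here do not give which of them made the values. If RMA made them, its equalizing of the arrays would hide a shift common to most transcripts. The deposited distributions were not identical. Quantile normalization changed the genes at least 1.5-fold higher from 13 to 22. Of 33297 probes the 19460 with 1 gene symbol in the platform annotation were kept and averaged per gene; current symbols came from the RefSeq table of GRCh38.p14 (19429 probes matched). Listed genes without such a probe were not analysed here.

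The effect is the log2 difference. With 1 array per group no test was possible and p-values are not given; the number of arrays limits the precision. Named genes were the 10 listed genes, their paralogues, a set of regulators and markers, and, in each list, the 2 genes above the filter with the largest difference and any past 1.5-fold. Genes and lists were chosen with earlier results of these data known. Alternatives were other level filters, quantile normalization, centring by array medians or by a running median along level, other probe rules, list means and other thresholds. A difference or list median was said to move when it changed by 0.1 or more. The steps were tested on simulated data with planted differences of 2-fold and 1.5-fold and with a constant shift of 1 array. Smaller differences of single genes, such as those of the listed genes, were not simulated. Software was pandas 2.3.3, NumPy 2.4.6 and matplotlib 3.10.9 under Python 3.11.15.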

Additional observations from a re-analysis of the deposited data

How the results depend on the processing

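No value has a replicate error, and depth has no meaning for an array. The differences of the 10 listed genes moved by at most 0.08 under the 5 alternatives run for single genes. Most of these alternatives could show little, since each listed gene has 1 probe and the other probe rules returned the same values. Centring on array medians shifted every gene by the same -0.012. Only the running median and quantile normalization could move genes by unlike amounts. Of the 10 genes 7 kept their sign under the 3 scalings, while G6PC3, FBP1 and IRS2 did not. The median of the listed genes ran from -0.02 (mean in place of median) to 0.05 (quantile normalization). The medians of the 9 related lists moved by less than 0.1 under all 8 alternatives, although several small ones changed sign. The counts over all genes moved more: 13 genes were at least 1.5-fold higher and 23 lower, against 61 and 68 without the level filter, 1 and 4 at 2-fold, and 275 and 693 at 1.2-fold, the last chosen after seeing the data. With the running median taken off there were 21 higher (19 lower), with quantile normalization 22 higher (18 lower), and 8 lower genes remained with a filter at the 75th percentile. The cause of the moves was not tested, apart from the filters and thresholds, which change by construction how many genes can pass. Pseudocounts were not needed on a log2 table. No paired analysis was possible because there was a single array per condition, which also left no replicate to omit.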

Other observations

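Some dim genes of the pathway lists, named here after their values were seen, were higher on the exposed array. Of the 4 named, PFKFB4 alone lay past the upper edge of genes of like level, and the others lay inside it. PFKFB4, an isoform of the enzyme that makes and removes fructose 2,6-bisphosphate, had a log2 intensity of 6.79 in the control and 7.23 after SiO2-NP, a difference of 0.43 where genes of like level ended at 0.42. Its liver isoform PFKFB1 differed by 0.35, below an edge of 0.41. LDHB, a lactate dehydrogenase subunit, had 3.86 and 4.31 (difference 0.45, edge 0.46), and AQP9, the hepatic glycerol channel, had 5.34 and 5.70 (0.36, edge 0.48). All 4 were below the level filter, and with no background measured such dim transcripts cannot be told from background here. Among genes above the filter, STAT3, which represses gluconeogenic genes in liver, differed by 0.22, and NR0B2, the nuclear corepressor SHP, by 0.18, both inside their ranges of like level.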
